A study of Gallus gallus with 2 samples.

Results

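The female brain pools of newly hatched chicks (Gallus gallus, Cobb strain) are described here across all genes of a whole-genome array. A pool of whole-brain RNA from 8 females trained for 1 h was labelled with Cy3. A pool from 8 females reared in the dark was labelled with Cy5, and both were hybridised together to 1 array. The series holds 2 such arrays, and the other compares male pools of the same kind, trained with dark-reared. In all, 16 trained and 16 dark-reared chicks went into 4 pools. The sample titles name the dark-reared pool before the trained one, and the direction used here, trained over dark-reared, follows the dye labels. With 1 array and 1 pool a side there is no replicate, so sizes are given and no test was made. Each pool carried 1 dye only, and what a probe owes to its dye cannot be told apart from a difference between the pools. The comparison chicks stayed in darkness, and for this reason learning cannot be told apart from light, movement or any other part of the training.

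Filial imprinting is the rapid learning by which a young precocial bird comes to recognise and follow a conspicuous object seen soon after hatching. In domestic chicks it depends on a region of the dorsal forebrain and is open for a sensitive period, which thyroid hormone entering the brain is known to help to set. Neuronal activity and neuromodulators switch on immediate early genes and cAMP-responsive genes in such regions within minutes to hours. Whole brain was measured here, so a response in a small region is diluted by all the others.

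On the female array, 62.9% of the 42034 gene probes cleared the scanner software's background test in the trained channel, and 66.5% cleared it in the dark-reared one. No probe was saturated. The 26156 probes well above background in both channels and free of outlier flags are called measured below. They stand for 7252 named genes, each represented by its brightest probe, and 18111 measured probes carry no gene name. The median net signal of the measured probes before normalization was 87.1 for trained (Cy3) and 186 for dark-reared (Cy5). A ratio is the log2 of the trained over the dark-reared value after background correction and loess normalization, and levels are normalized intensities, which cannot be compared between probes. Precision was gauged on the repeated spots of the spike-in controls. Each of 10 spike-in probes is spotted 32 times, and the SD of its log2 ratio over spots had a median of 0.15 (range 0.12 to 0.19). This covers the error of a spot and not that of pooling, extraction or labelling. The spike-in probes had mean log2 levels of 8.7 or more, whereas 14872 of the measured probes lay below 8. For such dim probes this SD gives no measure. The scanner software's own error of a log2 ratio had a median of 0.21 over measured probes. The tissue label was checked against marker genes. All 16 pan-neuronal markers on the array were measured, with summed levels of 123700 for the trained and 140800 for the dark-reared pool. Of 26 pineal and photoreceptor markers 13 were measured, with summed levels of 2348 in the trained pool and 2261 in the dark-reared pool.

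Most ratios were small relative to the centre near 0 that loess normalization sets. A shift shared by most transcripts could not be seen in them. The ratios of measured probes had a median of -0.0076 and an SD of 0.19, with the 5th percentile at -0.34 and the 95th at 0.27. At least 1.5-fold higher in the trained pool were 88 probes (0.336% of those measured), and 176 (0.673%) were at least 1.5-fold lower. Among named genes the counts were 25 higher (0.345%) and 50 lower (0.689%). At 2-fold, 15 probes were higher and 7 lower. For smaller differences, a gene or probe is called past 25% where its level in one pool was at least 25% above that in the other. By this measure 813 probes were higher (3.11%) and 1568 lower (5.99%). The excess of lower probes depended on where probes lie on the array, as shown next.

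**Figure D1:**
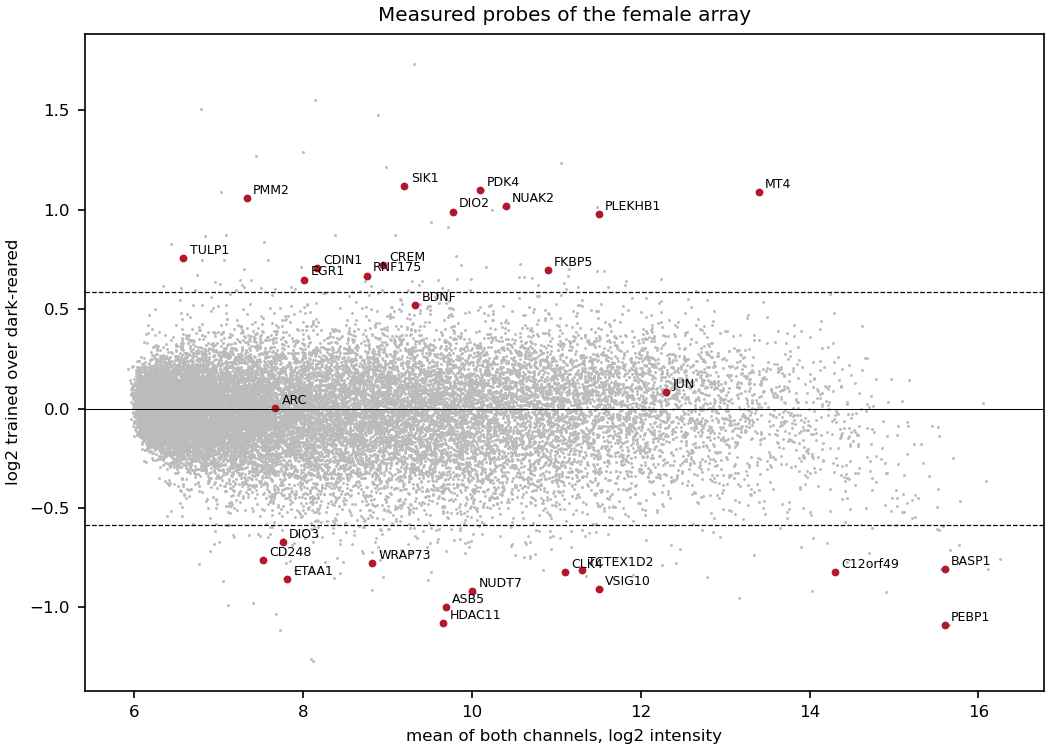
Each grey point is 1 of the 26156 measured probes of the female array, with the mean log2 intensity of both channels on the x axis and the log2 ratio of trained over dark-reared on the y axis. Dashed lines mark 1.5-fold, and red points are named genes such as SIK1 (1.12), PDK4 (1.1), HDAC11 (-1.08) and PEBP1 (-1.09), which lie outside the band that holds most probes.

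The array has 532 rows of spots, and ratios were lower toward its outer rows. Measured probes in the outermost 10 rows at either end had a median ratio of -0.24, and 50 of these 807 probes (6.2%) were at least 1.5-fold lower while 0 were higher. In the middle of the array, more than 80 rows from either end, the median was 0.027, and 54 of 18599 probes (0.29%) were lower and 77 higher. The male array, printed on the same slide, had a median of -0.23 in the same outermost rows. In the software's processed signals, from which a spatial trend had been removed, the outermost rows had a median of -0.027. A smooth surface over rows and columns was therefore subtracted from the ratios as an alternative, chosen after the data had been seen, and is called position-corrected below. It left 72 probes at least 1.5-fold higher (0.275%) and 65 lower (0.249%), so the excess of lower probes was no longer seen. Past 25%, 2.55% of probes were then higher and 2.14% lower. The processed signals put 2.41% of probes at least 1.5-fold higher and 1.8% lower, and 10.4% and 9.09% past 25%. The spots of a spike-in probe, which the surface was not fitted on, then had a median SD of 0.072 in place of 0.15. Of the 88 higher probes 65 stayed past 1.5-fold after this correction, and of the 176 lower probes 61 did. The SD over measured probes became 0.16. The position-corrected ratio and the ratio of the software's processed signals are given beside the results below wherever they matter.

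**Figure D2:**
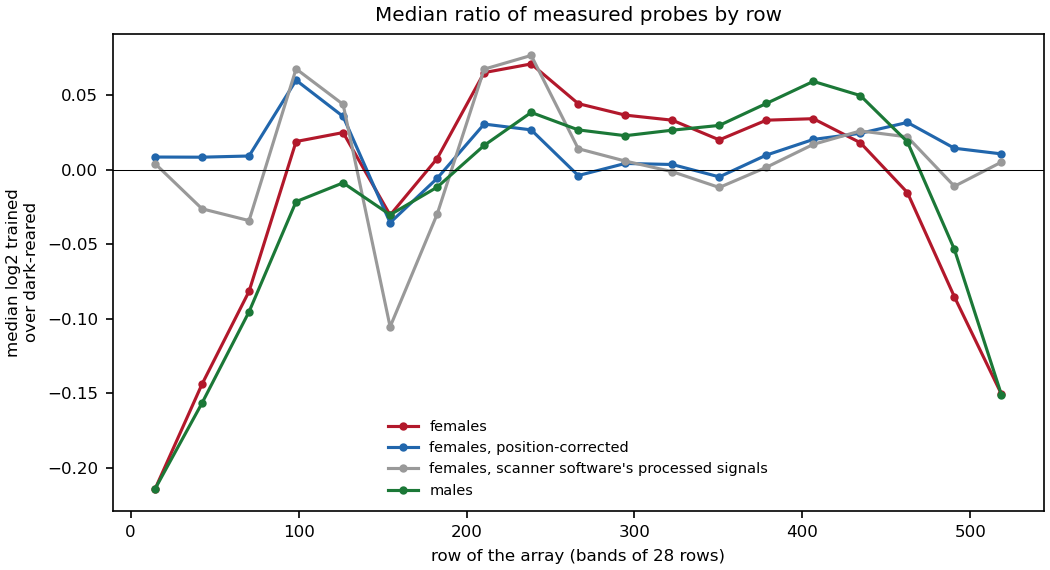
Median log2 ratio of trained over dark-reared over measured probes in bands of 28 rows from the first to the last row of the array. Lines show the female array as normalized (red), after position correction (blue) and in the scanner software's processed signals (grey), and the male array (green). The uncorrected female and male medians both drop to about -0.21 in the first band, while the position-corrected medians stay between -0.036 and 0.06.

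Of the activity-regulated genes, SIK1 and CREM were among the 12 named genes with the highest ratios, and the others differed less. SIK1, a salt-inducible kinase that restrains CREB coactivators and whose gene is switched on by cAMP, had 865 in trained and 399 in dark-reared females. That is 2.17-fold higher in the trained pool (log2 ratio 1.12, position-corrected 1.17). CREM stood on a probe that the array calls ICER, the inducible cAMP early repressor made from an internal promoter of that gene. Its level was 629 in trained and 382 in dark-reared females, a ratio of 0.72 (position-corrected 0.69). EGR1, the transcription factor also known as ZENK in birds, read 322 in trained and 205 in dark-reared females, a ratio of 0.65, and 0.79 after position correction. In the processed signals EGR1 had 1.08, more than 1.5 times as large. The neurotrophin BDNF, which strengthens synapses in response to activity, had 769 in trained and 536 in dark-reared females, 1.43-fold higher (0.52, position-corrected 0.47). MAFF, a small basic leucine zipper factor, stood at 0.45, the MAP kinase phosphatase DUSP4 at 0.38, and the secreted CCN2 at 0.36. These 7 genes are given here because they were higher in the trained pool. Their shared direction is therefore no result about activity-regulated genes as a set.

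Other immediate early genes had ratios near 0 or below it. ARC, whose mRNA travels to active dendrites, had 203 in both pools, a ratio of 0.0031. JUN, a subunit of AP-1, had 5208 in trained and 4919 in dark-reared females, a ratio of 0.08, which was 0.22 after position correction and 0.24 in the processed signals. KLF6, a Krüppel-like factor, had 281 in trained and 406 in dark-reared females, a ratio of -0.53 that shrank to -0.34 after position correction. Over the list of 22 measured activity-regulated genes, 3 were at least 1.5-fold higher and 0 lower. Past 25%, 7 were higher, against 3.93% of named genes, and 1 was lower, against 6.52%. After position correction 6 were higher, against 2.92% of named genes, and 1 was lower, against 2.11%. The processed signals put 10 of the 22 higher past 25%, where 9.36% of named genes were so, and 1 lower, where 5.5% were. The median of the list was 0.075 (0.15 position-corrected), and that of all named genes 0.0051 (0.022 position-corrected). This list and those below were drawn up with earlier results of these data known. A count above the share of all named genes is therefore no result about a list.

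NUAK2, a kinase of the AMPK family like SIK1, had a level of 1877 in the trained pool and 928 in the dark-reared pool. This was 2.02-fold higher in trained females (1.02, position-corrected 0.95). The list of AMPK-related and calcium or cAMP regulated kinases and their partners had 21 measured members. SIK1, NUAK2 and CREM were the 3 of them at least 1.5-fold higher, and none besides was higher past 25%. Of all named genes 0.345% were at least 1.5-fold higher and 3.93% higher past 25%. Because the list was drawn up with earlier results known, its counts cannot show an excess over these shares. SIK1 and CREM are the same probes as among the activity-regulated genes above, so the 2 accounts overlap. PRKAG2, a regulatory subunit of AMPK, had 878 in trained and 1295 in dark-reared females, a ratio of -0.56. Its probe lies in row 24, and its ratio was -0.27 after position correction and -0.06 in the processed signals. The median over the 21 genes was 0.077.

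**Figure D3:**
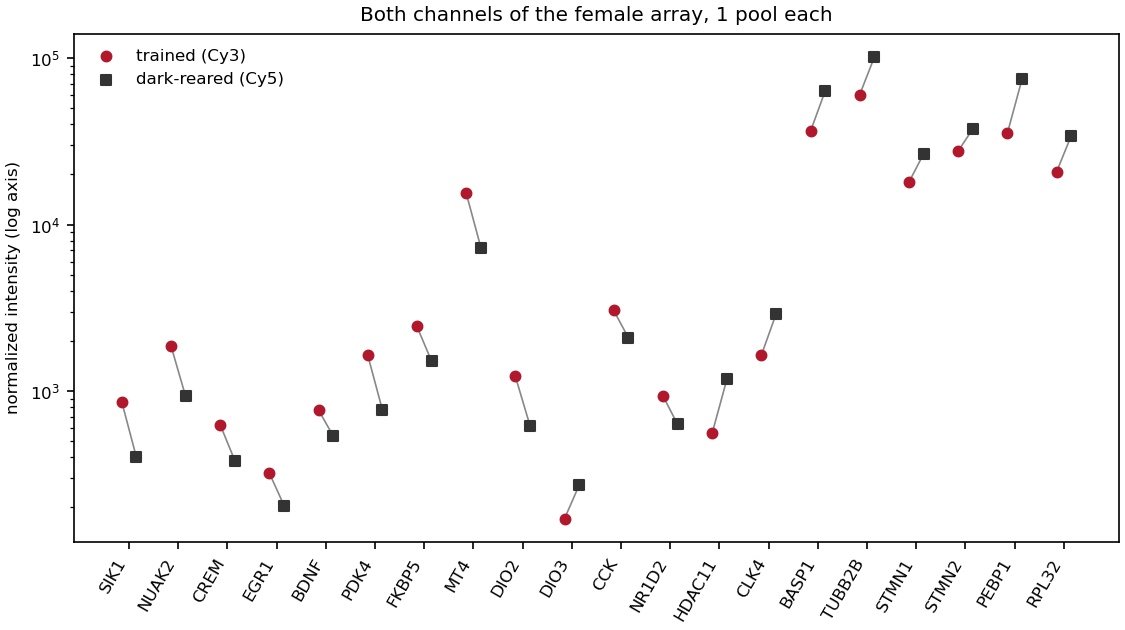
Normalized intensity (log axis) of 20 genes in the trained channel (red circles) and the dark-reared channel (black squares) of the female array, 1 pool each, joined by a line per gene. SIK1, NUAK2, CREM, EGR1, BDNF, PDK4, FKBP5, MT4, DIO2, CCK and NR1D2 were brighter in the trained channel and the other 9 genes, from DIO3 to RPL32, in the dark-reared one; levels of different genes come from different probes and are not comparable.

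The deiodinases, which set the amount of active thyroid hormone inside brain cells, differed in opposite directions. DIO2, which converts thyroxine to the active hormone, had a level of 1229 in the trained pool and 618 in the dark-reared pool, 1.99-fold higher (0.99, position-corrected 0.89). DIO3, which inactivates the hormone, had 171 in trained and 273 in dark-reared females, a ratio of -0.67 (1.59-fold lower). Position correction left DIO3 at -0.73 and the processed signals gave -1.0. Of the other 10 measured genes of the thyroid hormone list the only 1 past 25% was the nuclear receptor corepressor NCOR1 at -0.35, which was at -0.09 after position correction. The list also holds hormone transporters and receptors, none of them past 25% on the array. The list of 20 genes had 12 measured, 1 in a single channel and 7 not above background. Of the 12, 1 was higher and 2 were lower past 25%, where 3.93% of named genes were higher and 6.52% lower. After position correction 1 was higher and 1 lower, where 2.92% and 2.11% of named genes were. The median of the 12 was 0.05 (0.045 position-corrected).

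PDK4, a gene of the glucocorticoid and stress list, and MT4 had 2 of the 3 largest ratios of the array's named genes. PDK4, the pyruvate dehydrogenase kinase that spares glucose by holding back its oxidation, had 1647 in trained and 769 in dark-reared females. This was 2.14-fold higher (1.1, position-corrected 1.2). MT4, a metallothionein that binds zinc and copper, was the brightest of the 25 higher genes, with 15530 in the trained pool and 7283 in the dark-reared pool (1.09, position-corrected 0.98). FKBP5, a co-chaperone that lowers the hormone affinity of the glucocorticoid receptor, had 2445 in trained and 1510 in dark-reared females, 1.62-fold higher (0.70, position-corrected 0.68). CRH, the hypothalamic releasing hormone, stood at 0.38 and the kinase SGK1 at 0.36. CRHR2, a receptor for CRH-family peptides, had 370 in trained and 515 in dark-reared females, a ratio of -0.48 (position-corrected -0.34). Of the 16 measured genes of the glucocorticoid and stress list, 5 were higher past 25% and 1 lower, both as normalized and after position correction. Of all named genes 3.93% were higher and 6.52% lower as normalized, and 2.92% and 2.11% after position correction. In the processed signals 4 of the 16 were higher and 2 lower, against 9.36% and 5.5% of named genes. Their median was 0.047 (0.034 position-corrected). Since this list too was drawn up with earlier results known, its counts cannot show an excess over the shares of all named genes. The sister kinase PDK3 went the other way, with 1585 in trained and 2070 in dark-reared females (-0.39, position-corrected -0.40). PDK1 stood at 0.36. The 23 measured mitochondrial fuel genes had a median of -0.039, with 3 higher and 1 lower past 25%.

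Further genes at least 1.5-fold higher had mixed functions. PLEKHB1, a membrane protein with a pleckstrin homology domain, had 4048 in trained and 2054 in dark-reared females, 1.97-fold higher (0.98, position-corrected 0.89). TULP1, a tubby-like protein known from photoreceptors, had 124 in trained and 73.7 in dark-reared females, a ratio of 0.76. Both levels are close to the floor that the background correction gives, and the processed signals put TULP1 at 1.81. PMM2, the phosphomannomutase of N-glycan synthesis, had 233 in trained and 112 in dark-reared females, 2.09-fold higher (1.06, position-corrected 1.02). CDIN1, a nuclease partner of codanin, had 366 in trained and 224 in dark-reared females (0.71, position-corrected 0.61). RNF175, a RING finger protein, had 541 in trained and 341 in dark-reared females (0.67, position-corrected 0.58). Neither PMM2 nor CDIN1 was higher in the trained males, where the ratios were -0.29 and -0.14. Signalling genes followed. YWHAE, the 14-3-3 protein epsilon, had 6053 in trained and 3854 in dark-reared females (0.65), and the Wnt receptor FZD3 had 209 and 134 in these pools (0.65). With median centring in place of loess YWHAE lay below 0 at -0.11, while that setting moved the median of all named genes to -0.44. SRSF2, a serine and arginine rich splicing factor, had a ratio of 0.64 on its brighter probe and 0.22 on the other. EDEM1, which hands misfolded glycoproteins to degradation, had 821 in trained and 533 in dark-reared females (0.62), and lay below 1.5-fold after position correction (0.56) and in the processed signals (0.57). KBTBD3, a kelch-repeat protein, had 194 in trained and 127 in dark-reared females (0.61), and lay below 1.5-fold after position correction (0.58) but not in the processed signals (0.92).

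The 7 remaining named genes past 1.5-fold, listed after their values were seen, were PTGR1, VPS4B, LPAR6, VPS26B, TRAF7, TAPBP and CRIM1. Their ratios lay between 0.60 and 0.65, and between 0.50 and 0.69 after position correction. None of the 25 higher genes lay in the 80 outer rows at either end. Of the 25, 17 stayed past 1.5-fold after position correction, where 0.262% of named genes were higher. In the processed signals 19 did, where 1.9% of named genes were higher, and 16 did in both. The largest ratios of all came from probes without a gene name. Probe A_87_P019245 had 1157 in trained and 348 in dark-reared females (1.73), and probe A_87_P020847 had 481 and 164 in these pools (1.55). In males the same probes had -0.30 and 0.30.

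**Figure D4:**
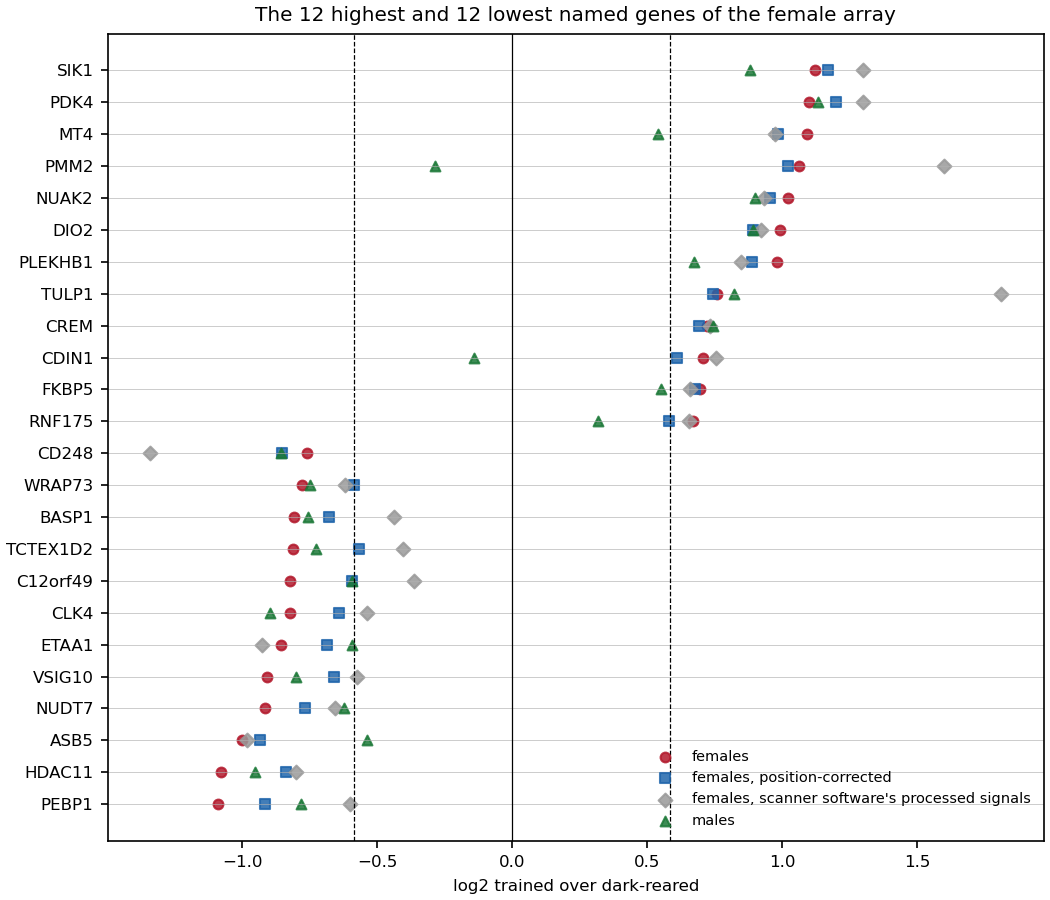
Log2 ratios of trained over dark-reared for the 12 named genes with the highest and the 12 with the lowest ratio on the female array, for females as normalized (red circles), females after position correction (blue squares), females in the scanner software's processed signals (grey diamonds) and males (green triangles). Dashed lines mark 1.5-fold. Only genes whose processed ratio had the same sign were picked, so the side of 0 on which the grey diamonds lie is set by that choice. All 12 upper genes stay to the right of 0 after position correction, whereas PMM2 (-0.29) and CDIN1 (-0.14) lie left of 0 in males. Most lower genes move toward 0 in both corrected readings.

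Among the lower genes, ASB5 and HDAC11 had the largest differences at moderate brightness. HDAC11, the class IV histone deacetylase, had 557 in the trained pool and 1175 in the dark-reared pool, 2.11-fold lower (-1.08). Its probe lies in row 19, and the ratio was -0.84 after position correction and -0.80 in the processed signals. The other 32 measured genes of the deacetylase and chromatin list all lay within 25% as normalized. In the processed signals 2 of the list were higher and 3 lower past 25%, where 9.36% of named genes were higher and 5.5% lower. Highest was SIRT3, a mitochondrial deacetylase, at 0.30. ASB5, an ankyrin repeat protein with a SOCS box, had 582 in trained and 1167 in dark-reared females, 2.01-fold lower (-1.0). This probe lies in row 202, away from the outer rows, but in column 77 of 85. It kept -0.94 after position correction and -0.98 in the processed signals. NUDT7, a peroxisomal enzyme that cleaves coenzyme A, had 758 in trained and 1432 in dark-reared females (-0.92, position-corrected -0.77). VSIG10, an immunoglobulin domain protein, had 2180 in trained and 4087 in dark-reared females (-0.91, position-corrected -0.66). ETAA1, an activator of the ATR kinase at stalled replication forks, had 167 in trained and 303 in dark-reared females (-0.86, position-corrected -0.69). CLK4, a kinase that phosphorylates SR splicing factors, had 1640 in trained and 2901 in dark-reared females (-0.82, position-corrected -0.64). WRAP73, a centrosomal WD repeat protein, had 345 in trained and 591 in dark-reared females (-0.78). A probe that the array calls CD93, and whose gene number belongs to CD248, a sialomucin of mural cells and fibroblasts, had 141 in trained and 239 in dark-reared females (-0.76, processed -1.34).

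Of the 12 lowest named genes 8 lay in the 80 outer rows at either end, and of all 50 genes at least 1.5-fold lower 33 did. After position correction 11 of the 12 stayed past 1.5-fold, and 7 did in the processed signals. Of the 50 lower genes 19 stayed past 1.5-fold after position correction, where 0.262% of named genes were lower. In the processed signals 18 did, where 0.772% were lower, and 13 did in both. TCTEX1D2, a dynein light chain, lies in row 1, and its ratio of -0.81 became -0.57 after position correction and -0.40 in the processed signals. C12orf49, a regulator of sterol sensing, lies in row 532, where -0.82 became -0.59 and -0.37. The 28 lower genes outside the rule for naming had ratios of -0.75 to -0.59, and of -0.74 to -0.34 after position correction. Among probes without a gene name the lowest were A_87_P019993, with 178 in trained and 430 in dark-reared females (-1.27), and A_87_P033643, with 176 and 421 in these pools (-1.26).

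Several of the lower genes were among the brightest on the array. PEBP1, an inhibitor of Raf kinase signalling, had 35270 in the trained pool and 74930 in the dark-reared pool, 2.12-fold lower (-1.09). Position correction gave -0.92 and the processed signals -0.60, more than 1.5 times smaller. BASP1, an abundant protein of growth cones, had 36380 in trained and 63720 in dark-reared females (-0.81, position-corrected -0.68, processed -0.44). The array's other PEBP1 and BASP1 probes were not well above background in the trained channel. Of the 27 measured growth cone and neuronal microtubule genes, 4 were lower past 25%, against 6.52% of named genes, and the same 4 counted after position correction, against 2.11%. They were BASP1, the tubulin TUBB2B (60350 in trained and 101800 in dark-reared females, -0.75) and the tubulin-binding stathmins STMN1 (-0.57) and STMN2 (-0.45). On its other probe STMN2 had -0.38, which was -0.20 after position correction and 0.00115 in the processed signals. In the processed signals STMN2 stood at -0.31 on its brightest probe. There 3 genes of the list were lower past 25%, where 5.5% of named genes were. The microtubule protein DCX of migrating neurons was the 1 member higher, with 6733 in trained and 5182 in dark-reared females on its brightest probe (0.38), while its other 3 probes lay between -0.08 and 0.22. The median of the list was 0.027, but -0.34 relative to all named genes with median centring.

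Brightness itself went with the ratio at the top end. The 224 measured probes with a mean log2 level of 14 or more had a median ratio of -0.14, both as normalized and after position correction, and -0.03 in the processed signals. Of these, 18 were at least 1.5-fold lower and 0 higher, and 10 were lower after position correction. Cytosolic ribosomal protein genes are among the brightest, with a median log2 level of 13.9. Of 37 measured, 10 were lower past 25% and 1 higher, 7 and 1 after position correction, and 4 and 2 in the processed signals. The shares of all named genes lower past 25% in these readings were 6.52%, 2.11% and 5.5%. Their median was -0.11, -0.073 after position correction and -0.054 in the processed signals. RPL32 of the large subunit had 20690 in trained and 34230 in dark-reared females (-0.73, position-corrected -0.48, processed -0.25). RPL3, also of the large subunit, was highest with 6225 and 4964 in these pools (0.33, position-corrected 0.25). Respiratory chain and ATP synthase genes, with a median log2 level of 13, had 6 of 35 lower and 1 higher past 25%, and 4 and 0 after position correction. NDUFB10, a subunit of complex I, had 10480 in trained and 15860 in dark-reared females (-0.60, position-corrected -0.45). NDUFB6 of the same complex had 11710 and 9222 in these pools (0.34, position-corrected 0.25). The part of brightness in these lists was not tested.

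The counts for genes of transmitters, receptors and synapses are to be read against all named genes, of which 3.93% were higher and 6.52% lower past 25%, and 2.92% and 2.11% after position correction. Of 23 measured neuropeptide and granule genes, 3 were higher and 3 lower past 25%, and 3 and 1 after position correction. CCK, the cholecystokinin precursor, had 3051 in trained and 2086 in dark-reared females, 1.46-fold higher (0.55, position-corrected 0.44), and the gastrin-releasing peptide GRP stood at 0.42. GAL, the galanin precursor, had 140 in trained and 189 in dark-reared females (-0.43). Of 42 neurotrophin and growth factor genes, 3 were higher and 2 lower past 25%, and 2 and 1 after position correction. The 3 higher ones were PDGFB (5818 in trained and 3995 in dark-reared females, 0.54), BDNF and the neurotrophin receptor NTRK3 (0.33). GFRA1, a receptor for GDNF, had 417 in trained and 633 in dark-reared females (-0.60, position-corrected -0.65). Glutamate receptor and postsynaptic genes had 0 of 18 higher and 2 lower past 25%, and 0 either way after position correction. The lowest of them was PPP3R1, the regulatory subunit of calcineurin, with 24950 in trained and 32210 in dark-reared females (-0.37, position-corrected -0.25). Synaptic vesicle genes had 0 of 16 higher and 1 lower, the active zone protein PCLO (-0.33), which moved to -0.08 after position correction. For GABA and glycine genes the counts of 16 were 0 higher and 3 lower, and 1 higher and 0 lower after position correction. Of 19 monoamine and acetylcholine genes the muscarinic receptor CHRM4 was highest (724 in trained and 539 in dark-reared females, 0.43). TPH2, which starts serotonin synthesis in neurons, was lowest at 86.2 and 117 in these pools (-0.44). Both levels are near the floor of the array, and the processed signals gave TPH2 -0.97. Ion channel genes had 2 of 49 higher and 1 lower, and 0 either way after position correction. The processed signals put 9 of them higher and 2 lower, where 9.36% of named genes were higher and 5.5% lower.

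**Figure D5:**
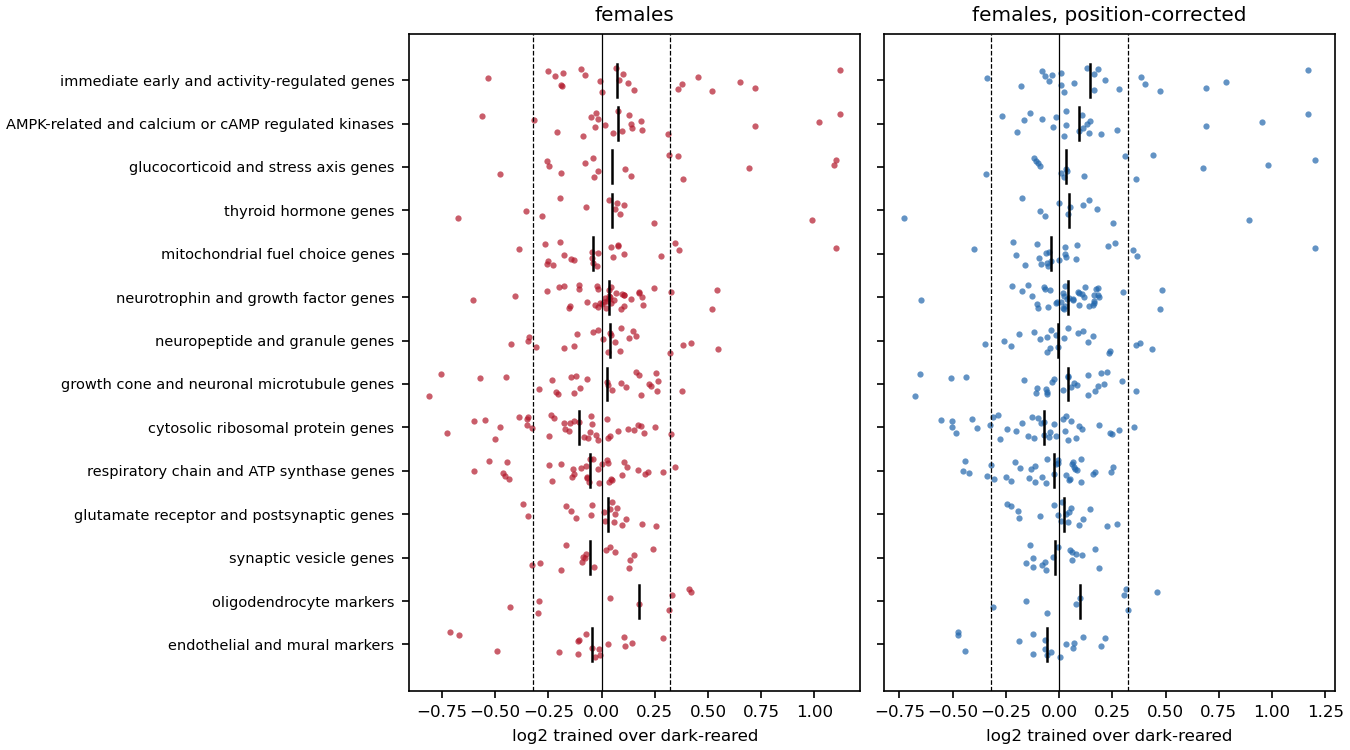
Log2 ratios of trained over dark-reared of the measured genes on 14 lists, 1 point per gene at its brightest probe, as normalized (left) and after position correction (right). Black bars are list medians and dashed lines mark 25%. The list medians lie within 0.2 of 0 in both panels, and a few members of the first 5 lists, such as SIK1, PDK4 and DIO2, stand far to the right of the rest.

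Clock, stress protein and metabolic lists are given next. Their counts past 25% stand beside 3.93% of all named genes higher and 6.52% lower, and 2.92% and 2.11% after position correction. NR1D2, the REV-ERB beta repressor of the circadian clock, had 936 in trained and 630 in dark-reared females, 1.49-fold higher (0.57, position-corrected 0.55). It was the 1 gene of 15 clock and melatonin genes past 25%, and CLOCK itself had 199 in trained and 243 in dark-reared females (-0.28, position-corrected -0.09). Of 36 heat shock and unfolded protein genes, 4 were higher and 5 lower past 25%, and 3 and 1 after position correction. The collagen chaperone SERPINH1 was lowest, with 3517 in trained and 5099 in dark-reared females (-0.54, position-corrected -0.38). Glycolysis and hypoxia genes had 3 of 28 higher and 3 lower. PGAM1, a glycolytic mutase, was highest at 7834 in trained and 6014 in dark-reared females (0.38), and PDK3 was lowest. Sterol and fatty acid synthesis genes had 2 of 21 higher and 0 lower, and the highest was the citrate lyase ACLY (158 in trained and 118 in dark-reared females, 0.43). Of 31 proteasome genes 3 were higher and 1 lower, with PSMD2 of the regulatory particle highest at 0.45 and the core subunit PSMB1 lowest at -0.41. Mitochondrial ribosomal protein genes had 3 of 45 higher and 3 lower. MRPL44 was highest with 7284 in trained and 4976 in dark-reared females (0.55), and MRPS17, in row 8, was lowest at -0.52, or -0.29 after position correction.

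For the next lists too, 3.93% of all named genes were higher and 6.52% lower past 25%. After position correction the shares were 2.92% and 2.11%, and in the processed signals 9.36% and 5.5%. Splicing factor genes had 1 of 49 higher and 3 lower past 25%, with SRSF2 and CLK4 at either end. Wnt and frizzled genes had 2 of 32 higher and 1 lower, and FZD8, another Wnt receptor, had 390 in trained and 570 in dark-reared females (-0.55, position-corrected -0.47). The 5 measured 14-3-3 genes ran from YWHAE down to YWHAG, which had 31810 in trained and 40060 in dark-reared females (-0.33). Axon guidance genes had 0 of 41 higher and 1 lower, the ephrin receptor EPHA6 (-0.49), which lies in row 524 and stood at -0.26 after position correction. The processed signals put 7 of the 41 higher and 2 lower, where 9.36% of named genes were higher and 5.5% lower. Cadherin genes had 1 of 30 higher, PCDH12 (0.34), and 3 lower, of which CDH10 was lowest with 944 in trained and 1324 in dark-reared females (-0.49). With the processed signals 4 were higher and 2 lower. Of 44 collagen, laminin and integrin genes 2 were higher and 2 lower, with agrin, AGRN, at 0.40 and the basement membrane collagen COL4A1 at -0.49. Cell cycle genes had 2 of 37 higher and 1 lower. PRIM2, a subunit of the primase, had 222 in trained and 337 in dark-reared females (-0.60, position-corrected -0.45), and the checkpoint kinase BUB1 stood at 0.35. The processed signals put 8 of these 37 higher and 1 lower. Homeobox genes had 1 of 35 higher, DLX5 (0.38), and 1 lower, GBX1 (-0.42), which lies in row 14 and stood at -0.14 after position correction. Interferon and inflammatory genes had 1 of 26 higher and 2 lower, with the chemokine CCL4 at 0.37 and the death ligand TNFSF10 at -0.64. TNFSF10 stood at -0.48 after position correction and at -0.42 in the processed signals. After position correction 3 of the 26 were higher and 1 lower, and in the processed signals 8 and 1. Amino acid response genes had 1 of 16 higher, the heme oxygenase HMOX1 (0.36), and 0 lower.

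Markers of cell types bore on which cells the pools held. In such bulk RNA, fewer cells of a type and less RNA per cell cannot be told apart. Of all named genes 3.93% were higher and 6.52% lower past 25%, and 2.92% and 2.11% after position correction. Of 9 oligodendrocyte markers 3 were higher past 25% in the trained pool and 1 was lower, and 2 and 0 were so after position correction. The iron carrier transferrin, TF, had 7473 in trained and 5578 in dark-reared females (0.42), UGT8, which makes myelin galactolipid, stood at 0.41 and the transcription factor SOX10 at 0.33. The myelin basic protein gene MBP, the brightest of these markers, had 30400 in trained and 41000 in dark-reared females (-0.43, position-corrected -0.31, processed -0.08). The summed level of the 9 markers was 51750 in the trained pool and 59300 in the dark-reared pool, and most of both sums came from MBP. Of 17 endothelial and mural markers 0 were higher and 3 were lower, both as normalized and after position correction. In the processed signals 0 were higher and 5 lower, where 9.36% of named genes were higher and 5.5% lower. SOX18, a transcription factor of vessels, had 607 in trained and 967 in dark-reared females (-0.67, position-corrected -0.47). VWF, the clotting factor of endothelium, had 325 in trained and 533 in dark-reared females on its brightest probe (-0.71, position-corrected -0.47), and -0.18 and -0.06 on the other probes. Adhesion molecule PECAM1 had 0.29 on its brightest probe and -0.13 and -0.35 on the others. The summed level of the list was 9555 in trained and 11170 in dark-reared females, and its median was -0.045, against 0.089 relative to all named genes with median centring. Blood cell markers had 0 of 11 higher and 1 lower, and the globin HBBA, the brightest of them, had 15430 in trained and 12620 in dark-reared females (0.29). Astrocyte and radial glia markers had 0 of 17 higher and 1 lower, NES (-0.45), in row 2, which stood at -0.22 after position correction. Microglial markers had 0 of 11 either way, and CD74 was highest (0.25). Choroid plexus and ependymal markers had 1 of 9 higher, the prolactin receptor PRLR (0.43), and 1 lower, the Wnt agonist RSPO3 (-0.68, position-corrected -0.48). Pituitary markers had 0 of 9 either way. Muscle and connective tissue markers had 0 of 18 higher and 2 lower, the myosin MYH15 (-0.40) and CD248. The latter is counted here by its gene number, though the array calls its probe CD93.

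A check on single probes comes from genes with several non-overlapping measured probes. There were 591 such genes, and across them the ratios of different probes of a gene correlated at r = 0.18, or 0.23 after position correction. Genes are not independent replicates, and both probes share the array, its dyes and the pools. Of the 591, 1 had all probes higher past 25% and 4 had all lower. Also after position correction, 1 of the higher and 1 of the lower had all probes past 25%. Of all named genes 3.93% were higher and 6.52% lower past 25% on their brightest probe. How many of the 591 would pass if their probes were unrelated was not worked out. These small counts therefore do not establish the ratios of single genes. TMEM63C, a mechanosensitive channel protein, had 158 and 152 in trained females on its 2 probes, against 123.3 and 106 in dark-reared females (0.36 and 0.52). CLK4 had -0.82 and -0.54 on its probes, -0.64 and -0.34 after position correction, and -0.54 and -0.44 in the processed signals. STMN2 and the motor protein DYNC2H1 were also lower on both probes as normalized, as was the splicing regulator SFSWAP, but each had at least 1 probe within 25% after position correction. A single measured probe stood for 6591 of the 7252 named genes, SIK1, PDK4, DIO2, DIO3, EGR1, BDNF and HDAC11 among them.

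Some genes were well above background in 1 channel only, which gives a bound. The bound sets the dim channel to at least the lowest level that was well above background in it. For EVC, NDUFB8, LRRK1, NPVF, SFRS12, YF and ULK4 the dim channel read above that lowest level. Their bounds equal the measured ratios and set no limit beyond them. In the trained channel only, EVC, a protein of the primary cilium, had a bound of 1.29-fold. Its levels were 78.5 and 60.6 in the trained and dark-reared pools. NDUFB8 followed with a bound of 1.26-fold, then UGGT1, GHSR and LRRK1 with bounds of 1.17, 1.16 and 1.15. GHSR is the ghrelin receptor. In the dark-reared channel only, NPVF, which encodes the gonadotropin-inhibitory neuropeptides of birds, had the largest bound, with 61.8 in the trained pool and 77.2 in the dark-reared pool. SFRS12, HMMR, YF and ULK4 had bounds of 1.16, 1.15, 1.13 and 1.13. The bounds are not corrected for position. After position correction the ratios of NPVF, YF and UGGT1 were -0.12, -0.06 and 0.14, against log2 bounds of 0.32, 0.18 and 0.23. Those of ULK4, SFRS12 and LRRK1 were -0.126, -0.187 and 0.171, against 0.181, 0.212 and 0.206. The bounds of all these genes do not hold there. All these levels lie near the floor of the array.

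The male array is the other comparison of trained with dark-reared pools in the series. Across 25207 probes measured on both arrays, female and male ratios correlated at r = 0.68, and at 0.57 after position correction and 0.41 in the processed signals. The arrays share probes, slide and dye orientation, and a probe effect of a dye would raise this correlation. Of the 88 probes higher in females 87 were measured in males, where 32 were past 1.5-fold and 65 had the same sign. Of the 176 lower probes 174 were measured in males, where 82 were past 1.5-fold and 165 had the same sign. The share of all 25207 probes with the same sign on both arrays was not counted. Counts of shared signs, here and for genes below, therefore show nothing particular to the probes or genes named. On the male array itself 93 of 25687 probes were at least 1.5-fold higher (0.362%) and 262 lower (1.02%). Of the 12 highest female genes 10 had the same sign in males as normalized, and 7 were past 1.5-fold there. Of the 12 lowest all 12 and 11 did so, but 8 of these lie in the 80 outer rows, where male ratios were lower too. After position correction the male ratios of HDAC11 and PEBP1 stayed past 1.5-fold (-0.68 and -0.62). Those of VSIG10, TCTEX1D2 and C12orf49, among others, fell short of it (-0.52, -0.465 and -0.36). PDK4 (1.1 in females and 1.13 in males), SIK1 (1.12 and 0.88), NUAK2 (1.02 and 0.90), DIO2 (0.99 and 0.89) and CREM (0.72 and 0.74) had near values in females and males. MT4 stood at 1.09 in females and 0.54 in males, and ASB5 at -1.0 in females and -0.54 in males.

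Other genes had different ratios on the 2 arrays. With 1 array per sex the difference was not tested, and pools of other chicks could differ as much. The largest differences upward in females were those of PMM2 (1.06 in females and -0.29 in males), KBTBD3 (0.61 and -0.51) and CDIN1 (0.71 and -0.14). Next came the matricellular CYR61, with -0.18 in females and -0.96 in males, and BTBD7, with 0.51 and -0.24. The largest downward were those of RGR, an opsin of the visual cycle, with -0.01 in females and 1.60 in males, and the uridine phosphorylase UPP1, with -0.65 and 0.66. LMBR1 had -0.06 in females and 1.12 in males, the mRNA export factor THOC7 had -0.72 and 0.44, and UGP2, which makes UDP-glucose, had -0.47 and 0.49. The female levels of RGR were 67.4 in the trained pool and 67.9 in the dark-reared pool, near the floor.

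The array design places its probes on the build galGal2. There the SIK1 probe lies at chr1:103586106-103586165, the NUAK2 probe at chr26:674335-674394 and the PDK4 probe at chr2:23211638-23211697. The MT4 probe lies at chr11:2019936-2019998, the DIO2 probe at chr5:37376448-37376507, the DIO3 probe at chr5:46106415-46106474 and the CREM probe at chr2:12350105-12350164. The HDAC11 probe lies at chr12:5780432-5780491, the ASB5 probe at chr4:44943267-44943326 and the BASP1 probe at chr2:75198673-75198732. The part of each gene that a probe matches, exon or untranslated region, was not analysed here.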

How the data were processed

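Per the labels' protocols, total RNA of whole brains was pooled in equal amounts, amplified and labelled, trained with Cy3 and dark-reared with Cy5. The authors deposited scanner output with mean spot and median background intensity per channel, not normalized, per the file headers. Its processed signals were detrended in space and dye-normalized, per the file headers, and the deposited series table holds log2 ratios of them, green over red (median 0.067 in females). The log10 ratio of red over green that the authors deposited was computed by the software, per the file headers. The scanner software is version 9.5.3.1 per the file headers and 8.5.1.1 per the submitters' processing notes.

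Intensities were corrected with normexp (offset 50) and normalized by loess within the array, control spots having weight 0, with limma 3.58.1 (R 4.3.3). The steps were tested on simulated data. Position correction subtracted a loess surface over rows and columns (span 0.1). The precision is limited by the number of arrays (1 per sex). Current names came from a RefSeq table of assembly GRCg7b, matched by accession for 5232 probes, by gene number for 3449 and by symbol for 986, while 114 kept the name on the array. The other 32253 probes stayed unnamed.

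Named are the 12 highest and 12 lowest genes whose processed ratio has the same sign, the highest and lowest member of each of 43 gene lists with 3 measured genes or more, and 10 genes chosen by name. Genes past 25% on all their probes, the 5 largest bounds and the 5 largest sex differences in each direction are also named. Other list members, named beside counts of a few genes, were picked with their values in view. The members and lists were chosen with earlier results of these data known. Alternatives changed the background correction, values, normalization, filter, fold, unit and position.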

Additional observations from a re-analysis of the deposited data

Results flagged for a closer look

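Given here are named genes at least 1.5-fold higher or lower in trained females whose ratio as normalized had the opposite sign in males. With 1 array per sex, the difference was not tested. PMM2 had 1.06 in females and -0.29 in males, CDIN1 had 0.71 and -0.14, and KBTBD3 had 0.61 and -0.51. GFRA1 had -0.60 in females and 0.0399 in males, UPP1 had -0.65 and 0.66, and THOC7 had -0.72 and 0.44. After position correction the female ratios were 1.02, 0.61, 0.58, -0.65, -0.69 and -0.54 in the same order of genes. The male ratio of GFRA1 was then -0.03, and -0.08 in the processed signals, so its sign did not differ between the sexes there. THOC7 lies in row 532, the last of the array, and had 93.0 in trained and 153 in dark-reared females. Outside the rule for naming, CA5A (-0.63 in females and 0.215 in males) and VPS26B (0.62 and -0.11) also had opposite signs. So did CRIM1 (0.60 and -0.0015), whose male ratio was near 0.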

How the results depend on the processing

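No paired analysis was possible because each sex has a single array, on which both pools were hybridised. The count of probes at least 1.5-fold higher in trained females, 88 as reported, was 160 with a normexp offset of 16, 1017 with plain background subtraction, 631 in the processed signals, 15 with median centring, 15 at 2-fold, 813 past 25% and 25 with 1 value per named gene. The count of probes at least 1.5-fold lower in trained females, 176 as reported, was 267, 1047, 471, 6889, 7, 1568 and 50 under these settings, 65 after position correction and 54 without the 80 outer rows at either end. Median centring leaves the trend of the ratio with brightness in place and set the median of measured probes to -0.33. Of 112 named genes 40 were past 1.5-fold. Median centring turned the sign of 30 of the 112, among them YWHAE (-0.11), BDNF (-0.04), CCK (-0.15), NR1D2 (-0.0068), PDGFB (-0.22) and MRPL44 (-0.24), left 16 of the 40 below 1.5-fold and moved 35 by over 1.5 times. Position correction turned the sign of 1 of the 112 and left 11 of the 40 below 1.5-fold, and the processed signals did so for 1 and 13. Dim probes limit these ratios, since the offset draws them toward 0.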

Other observations

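Among named genes at least 1.5-fold higher or lower in trained females, 71 have a place on an assembled chromosome of galGal2, and 3 pairs have probes within 50000 bases of each other. In each pair both genes were lower in the trained pool, as were 50 of the named genes past 1.5-fold, while 25 were higher. The number of such close pairs among all named genes was not counted. PEBP1 (-1.09) and VSIG10 (-0.91) lie 7508 bases apart on chromosome 15, and NDUFB10 (-0.60) and RPS2 (-0.60) lie 448 bases apart on chromosome 14. THUMPD3 (-0.61) and RPL32 (-0.73) lie 45589 bases apart on chromosome 12. Of these 6 probes, those of PEBP1, VSIG10, NDUFB10, THUMPD3 and RPL32 lie in rows 495 to 529 of the array and that of RPS2 in row 55. After position correction the ratios were -0.92 and -0.66, -0.45 and -0.50, and -0.46 and -0.48, in the order given. The pairs were found by searching these data, and what sets them was not tested.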
